A study of Mus musculus with 9 samples.

Results

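The nuclear receptor genes were examined across days 4, 7 and 21 of differentiation in cells sorted for an Afp reporter. A fixed list of 41 mouse genes of the superfamily was matched to the array annotation by symbol. Of these, 39 had a probe set assigned to that gene alone, among 22180 genes with such a probe set. Nr1h2 and Nr2e3 had none and were not analysed here. Where a gene had several such probe sets, the one with the highest mean signal was used. The receptors Hnf4a, Nr5a2, Nr4a1, Esrrb and Ppara were not among the 41 and serve here only for comparison.

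Nuclear receptors are transcription factors that, in most members, have a zinc finger domain for DNA and a pocket for a small lipophilic ligand. Ligands include retinoic acid, thyroid and steroid hormones, vitamin D, bile acids, oxysterols and fatty acids, and receptors with no established ligand are called orphans. Many bind DNA as heterodimers with a retinoid X receptor, at repeats of the hexamer AGGTCA and its variants, and recruit corepressors or coactivators. In the liver they control bile acid, lipid and drug metabolism, and in the early embryo retinoid receptors and orphan receptors take part in patterning and in the exit from pluripotency.

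The samples were 9 arrays, 3 at each day. All came from mouse embryonic stem cells with a transgene in which the alpha-fetoprotein promoter drives green fluorescent protein (Afp::GFP), grown as embryoid bodies in serum-containing medium on gelatin. At each time the Afp-expressing cells were collected by flow cytometry, so all groups share the transgene, the culture and the sort. No strain, clone or untreated group is named in the labels. Nothing in them ties the 3 arrays of a day to separate cultures, so the p-values reflect array-to-array spread alone, and that spread may be technical. The groups are therefore populations defined by activity of 1 promoter, and in such bulk samples more cells of a type and more RNA per cell cannot be told apart. Values are log2 signals, in which 1 unit is a doubling, and the background on each day is the 95th percentile of 1105 olfactory receptor genes, which lay between 5.91 and 6.19 on the 9 arrays. Where a gene lay below background on the dimmer day, the change is given as a lower bound in fold, measured from the background, and where it lay below on both days no size is given. A gene was called higher or lower at a limma p-value under 0.05 after Benjamini-Hochberg adjustment over all 22180 genes.

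The marker of the sort was checked on each array. Afp signal was 5.93, 5.62 and 5.62 at day 4 (replicates 1 to 3), 10.68, 10.59 and 10.54 at day 7, and 13.12, 13.14 and 12.95 at day 21. The groups did not overlap, and the transcript lay below background on all 3 arrays of day 4, the cells of which are labelled as sorted for it. Over all measured markers of visceral endoderm, the mean signal of the 13 genes ranged from 6.83 to 6.89 at day 4, from 9.53 to 9.57 at day 7 and from 8.81 to 8.84 at day 21. Markers of hepatoblasts and hepatocytes, 11 genes, went from 5.61 to 5.67 at day 4 to between 7.80 and 7.96 at day 21, with 1 of 11 above background at day 4 and 7 at day 21. Markers of stroma were also present, in unequal amounts on the arrays of day 21. Of 12 stromal markers 9 were above background at day 4, 9 at day 7 and 11 at day 21. The mean signal of the 12 was 9.26, 8.79 and 8.51 on the 3 arrays of day 21. At day 4 it was 6.78 to 6.90 and at day 7 it was 6.33 to 6.48. Markers of epiblast and pluripotency, 10 genes, ran the other way, from 7.43 to 7.74 at day 4 to 5.90 to 6.13 at day 21. Leukocyte markers, 8 genes, had a mean signal of 5.65 to 5.67 at day 7 and 6.34 to 6.47 at day 21, with 3 of 8 called higher. These were Cd14, at least 6.76-fold, Csf1r, at least 2.57-fold, and Lyz2, which lay below background on both days. Of the 8, 1 lay above background at day 7 and 3 at day 21, and the pan-leukocyte marker Ptprc lay below it on every day. Endothelial markers, 8 genes, lay between 6.03 and 6.21 at day 7 and between 5.52 and 5.72 at day 21. The cardiac list, 8 genes, ran from 6.56 to 6.65 at day 4, from 7.10 to 7.16 at day 7 and from 6.76 to 6.82 at day 21. Of its genes 3 were called higher by day 7 and 3 lower after it. The neural list, 8 genes, ran from 6.42 to 6.47, from 6.16 to 6.31 and from 5.97 to 6.11 on these days. Of its genes 3 were called lower from day 4 to day 21. The erythroid list, 4 genes, ran from 5.40 to 5.58, from 5.43 to 5.71 and from 5.13 to 5.28. For comparison, 6.98% of all genes were called higher by day 7, and 12.4% higher and 10.7% lower after it. From day 4 to day 21, 14.1% were called lower.

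**Figure D1:**
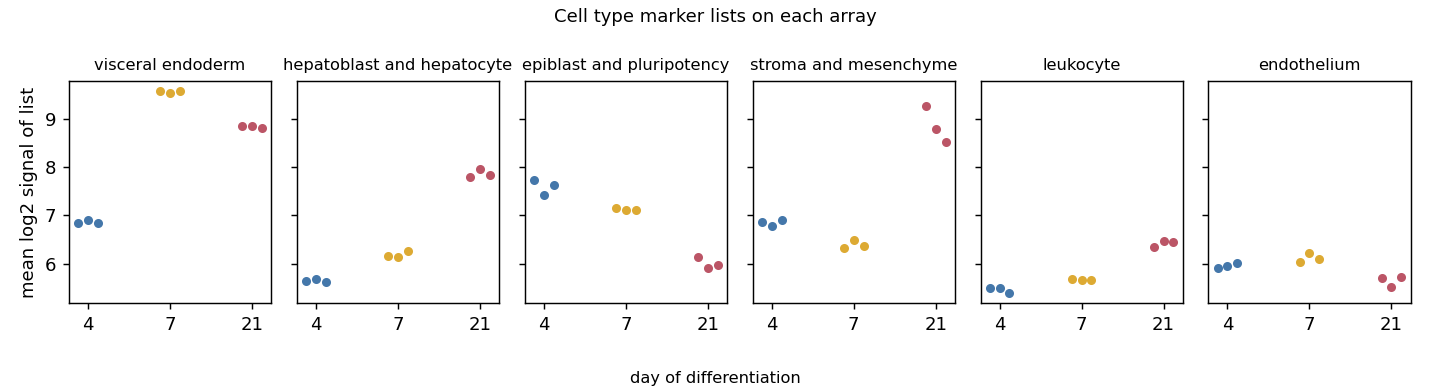
Mean log2 signal of marker lists (y axis) on each of the 9 arrays by day of differentiation (x axis), 1 point per array and 1 panel per list. The lists of visceral endoderm, hepatoblasts, epiblast, stroma, leukocytes and endothelium are shown, and the cardiac, neural and erythroid lists are not. The stromal points at day 21 lie between 8.51 and 9.26, above all points of days 4 and 7, and the epiblast points at day 21 lie lowest of the 3 days.

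Nuclear receptor transcripts were called between days 4 and 7 at about the share of all genes. In the later step more were called, both among the receptors and over all genes. Between days 4 and 7, 4 of 39 rose and 1 fell, or 12.8% called against 13.4% of all genes tested, of which 6.98% rose and 6.47% fell. From day 7 to day 21, 11 rose and 1 fell. The share called was 30.8% against 23.0% of all genes, and the share called higher was 28.2% against 12.4%, while 10.7% of all genes fell. From day 4 to day 21, 14 rose and 1 fell, with 38.5% called against 29.1%, and 35.9% called higher against 15.0%, while 14.1% of all genes fell. The median log2 change of the 39 genes was 0.06, 0.22 and 0.20 in these comparisons, and that of all genes -0.01, -0.03 and -0.03. The comparisons share arrays and are not independent of each other. The stromal and hepatoblast lists had 10 of 12 and 6 of 11 genes called higher between days 7 and 21. In that step 11 of the 39 members were called higher, and the part of stroma and hepatoblasts in those rises was not tested.

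Separation of the arrays was also counted without a model. The 3 arrays of day 7 lay wholly above those of day 4 for 11 members and wholly below for 6, against 14.0% and 15.9% of all genes (29.9% in all). Day 21 lay wholly above day 7 for 18 members and below for 2, against 17.1% and 18.4% (35.5% in all). Day 21 lay wholly above day 4 for 19 members and below for 1, against 19.4% and 21.0% (40.4% in all).

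In all, 17 of the 39 were called at least once and 22 were not. Nr2f2 and Rarb were the members that rose in both steps. Nr1h4, Pparg, Rarg, Thra, Esr1, Nr3c1, Nr4a2 and Nr4a3 were called higher in the later step and not called in the earlier one, a difference between the steps that was not tested. Nr3c2 and Nr2f6 were called in the earlier step, Nr1d1 fell and then rose, and Nr6a1 was the member that fell from day 7 to day 21. Hnf4g, Vdr and Rora were called only over the whole interval. Of the 39, 17 lay above background at day 4, 23 at day 7 and 26 at day 21, which is 43.6%, 59.0% and 66.7% against 53.7%, 54.1% and 56.3% of all genes.

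**Figure D2:**
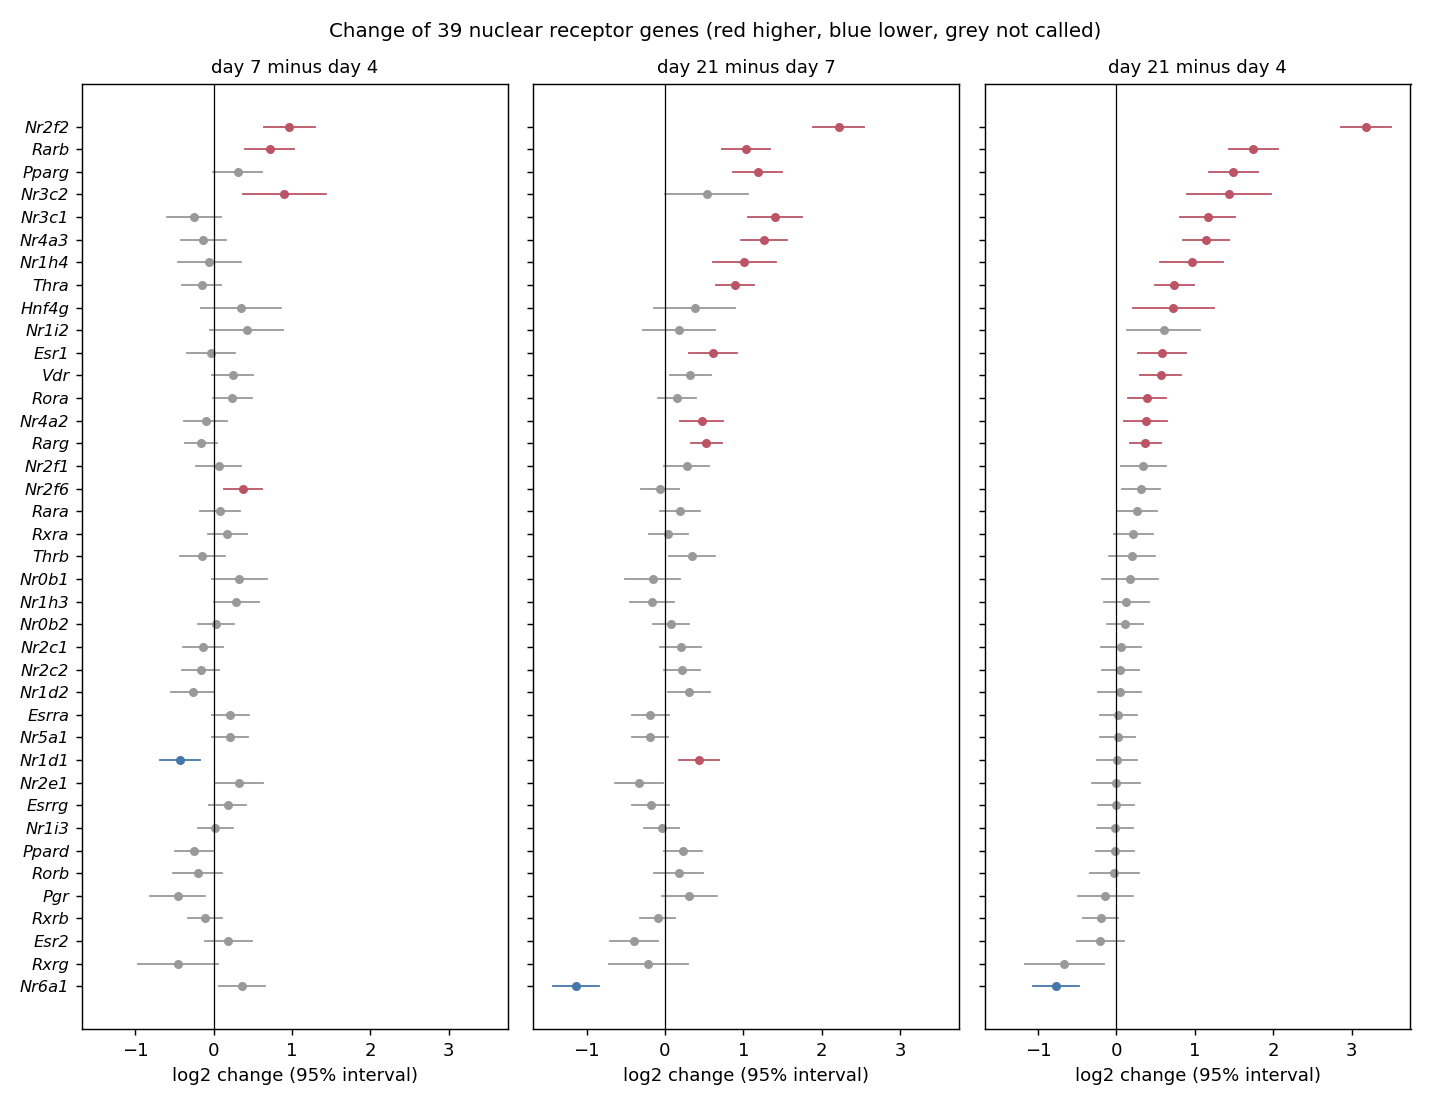
Log2 change of the 39 nuclear receptor genes (rows) in each comparison (panels), with 95% intervals from the limma model as bars. Red and blue points passed the adjusted threshold upward and downward, grey points did not. Nr2f2 lies at the top with a fitted difference of 3.18 from day 4 to day 21, and Nr6a1 at the bottom with -0.77; differences of genes below background on a day are fitted values, not sizes of change.

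The COUP transcription factors, orphan receptors that act in mesoderm, heart and vessel development and repress other receptors' target genes, included the member with the largest change. Nr2f2, which encodes COUP-TFII, had signals of 6.18, 6.22 and 5.65 at day 4, 6.87, 7.03 and 7.03 at day 7, and 9.21, 9.23 and 9.15 at day 21. Each day lay wholly above the day before it, and the 3 arrays of day 21 had an SD of 0.041. The rise from day 7 to day 21 was 4.65-fold, a log2 change of 2.22 ± 0.15 (SE, n = 3 arrays per day; limma adjusted p = 2.12e-06). As the day 4 mean lay just below background, the rise from day 4 to day 7 is given as at least 1.78-fold (limma adjusted p = 0.00120) and the whole rise as at least 8.29-fold (limma adjusted p = 1.33e-07). COUP-TFII is also found in mesenchyme, and 10 of 12 genes of the stromal list were called higher from day 7 to day 21. On the 3 arrays of day 21 the mean of that list ran from 8.51 to 9.26 and Nr2f2 from 9.15 to 9.23. The part of stroma in the rise of Nr2f2 was not tested.

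Its close relative Nr2f1, COUP-TFI, had signals of 6.04, 5.93 and 6.10 at day 4, 5.91, 6.10 and 6.25 at day 7, and 6.58, 6.31 and 6.20 at day 21. These values are near background on every day, and the change from day 4 to day 21 did not pass (limma adjusted p = 0.0739), though it passed in 2 of 16 alternative settings. Nr2f6, the third COUP family member, had signals of 7.69, 7.48 and 7.76 at day 4 and 8.09, 7.89 and 8.09 at day 7. Its change, 0.38 ± 0.11, was near the threshold (limma adjusted p = 0.0432) and was lost in 10 of 16 alternative settings, with adjusted p up to 0.159. Day 21 signals of Nr2f6 were 7.93, 7.90 and 8.05, not apart from those of day 7. The testicular orphan receptors Nr2c1 and Nr2c2 were above background on all days and were called in no comparison. Nr2e1, the neural stem cell receptor TLX, stayed below background, with day means between 5.41 and 5.75.

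Among retinoid receptors, which bind retinoic acid and its isomers, 2 of 6 rose over the whole interval, in which 15.0% of all genes rose. Rarb encodes retinoic acid receptor beta, whose gene is a textbook direct target of retinoic acid. Signals of Rarb were 5.76, 5.41 and 5.38 at day 4, 6.25, 6.28 and 6.17 at day 7, and 7.02, 7.46 and 7.31 at day 21. No day overlapped with the next, and the gene crossed from below background to 7.26 ± 0.22 (SD). The rise was at least 1.13-fold in the earlier step (limma adjusted p = 0.00616) and 2.05-fold, or 1.03 ± 0.14, in the later step (limma adjusted p = 3.48e-04). From day 4 to day 21 it was at least 2.30-fold.

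The upstream sequence of Rarb is shown because it holds the element through which retinoic acid receptors are known to act on this gene. The 250 bases before its RefSeq start (GRCm38.p6, chr14:16575477-16575726, minus strand) are given 5′ to 3′ with a direct repeat of the receptor hexamer, spaced by 5 bases (DR5), in capitals. The hexamer searched was AGGTCA or one of its close variants, namely GGGTCA as well as AGTTCA and also the form GGTTCA.
Rarb: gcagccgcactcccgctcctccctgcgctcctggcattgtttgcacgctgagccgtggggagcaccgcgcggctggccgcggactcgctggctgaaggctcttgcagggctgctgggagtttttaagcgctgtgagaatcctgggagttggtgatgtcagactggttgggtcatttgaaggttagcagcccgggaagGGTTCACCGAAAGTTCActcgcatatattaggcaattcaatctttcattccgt
The repeat lies 53 to 37 bases before the start. A DR5 of this kind, searched on both strands, was found in 29 of 32851 such windows of all genes (0.0883%). Among nuclear receptors, 37 of the 41 genes had 55 windows, and the Rarb window was the 1 that held it. Nr3c1, Thra, Nr5a1 and Hnf4g had no window. Repeats spaced by 1, 2 or 4 bases occurred in none of the 55 windows, and in 0.164%, 0.174% and 0.0670% of all windows. The plain hexamer AGGTCA, which can form part of such a repeat, was in 10 of 55 (18.2%) against 14.0% of all windows, and the E-box CACGTG in 5 of 55 (9.09%) against 6.02%. These are matches of letters and show nothing on binding.

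Of 14 listed genes of retinoic acid response and handling that had a window, Cyp26a1 held a DR5 as well. Cyp26a1 encodes the enzyme that degrades retinoic acid and is itself a known target of the hormone. Both elements are printed with the hexamers in capitals, the Cyp26a1 element as it reads on the strand opposite to the gene (chr19:37697776-37697792).
Rarb: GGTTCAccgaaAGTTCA
Cyp26a1: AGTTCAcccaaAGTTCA
Cyp26a1 signals were 9.21, 9.45 and 9.62 at day 4, a mean of 7.92 ± 0.065 (SD) at day 7, and 6.39, 6.14 and 6.19 at day 21. They fell in both steps without overlap, by -3.18 ± 0.12 in all (limma adjusted p = 4.31e-08), while Rarb rose.

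Rarg, retinoic acid receptor gamma, had signals of 6.61, 6.68 and 6.74 at day 4, 6.61, 6.46 and 6.50 at day 7, and 7.02, 7.07 and 7.05 at day 21. The day 21 arrays were above all others, by 0.53 ± 0.09 over day 7, or 1.44-fold (limma adjusted p = 0.00161). Rara, the alpha receptor, lay at 7.59, 7.68 and 7.86 in mean signal on the 3 days, and its change from day 4 to day 21, with a 95% interval from 0.01 to 0.52, did not pass. The heterodimer partners Rxra, Rxrb and Rxrg were not called. Rxra differed by 0.22 ± 0.11 from day 4 to day 21 (95% interval -0.03 to 0.46) and Rxrb by -0.20 ± 0.10 (-0.42 to 0.02), both above background on every day. Rxrg lay below background on every day, at 5.41, 4.95 and 4.74 in mean, and its change from day 4 to day 21 did not pass (limma adjusted p = 0.0520), though it passed in 7 of the 15 alternative settings that could test it.

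Receptors of bile acids, lipids and foreign compounds, a group prominent in mature liver, were mostly dim. Of 8 measured, 0 were called between days 4 and 7 by limma (2 had an unadjusted p under 0.05), 2 rose from day 7 to day 21 and 3 from day 4 to day 21. Of all genes 13.4% were called in the first of these comparisons, and 12.4% and 15.0% rose in the others. Pparg, the fat cell receptor for fatty acid ligands, had signals of 4.69, 4.52 and 4.75 at day 4, 5.04, 5.04 and 4.80 at day 7, and 5.97, 6.44 and 6.03 at day 21. The day 21 arrays stood clear of the rest (limma adjusted p = 1.37e-04 against day 7), but their mean of 6.15 was only just above background. Measured from the background level the rise was therefore at least 1.06-fold.

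Nr1h4, the bile acid receptor FXR, had signals of 4.93, 4.67 and 5.04 at day 4, 4.57, 5.07 and 4.84 at day 7, and 5.71, 5.61 and 6.20 at day 21. The day 21 arrays were above all others and the call against day 7 passed (limma adjusted p = 0.00209), but the day 21 mean, 5.84, was still below background, so no size of change is given. Hnf4g, the relative of Hnf4a found in gut epithelium, had signals of 5.38, 5.78 and 5.72 at day 4, 6.29, 5.72 and 5.92 at day 7, and 6.17, 6.90 and 5.99 at day 21. Its rise from day 4 to day 21, at least 1.22-fold, was near the threshold (limma adjusted p = 0.0374) and was lost in 8 of 15 alternative settings. The day 21 array of replicate 2 was highest.

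The xenobiotic receptors Nr1i2 (PXR) and Nr1i3 (CAR) and the atypical repressor Nr0b2 (SHP), which lacks a DNA binding domain, lay below background on all days. Nr1i3 signals ranged from 5.45 to 5.73 over the 9 arrays and those of Nr0b2 from 5.54 to 5.87. Nr1i2 had day means of 4.74, 5.17 and 5.35, and its change from day 4 to day 21 did not pass (limma adjusted p = 0.0534), though it passed in 3 of the 15 alternative settings that could test it. Nr1h3, the oxysterol receptor LXR alpha, lay at 5.77, 6.06 and 5.90, around background. Ppard, the widely expressed delta receptor, lay at 7.92, 7.67 and 7.90, well above background, with a day 21 minus day 4 interval of -0.26 to 0.22.

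**Figure D3:**
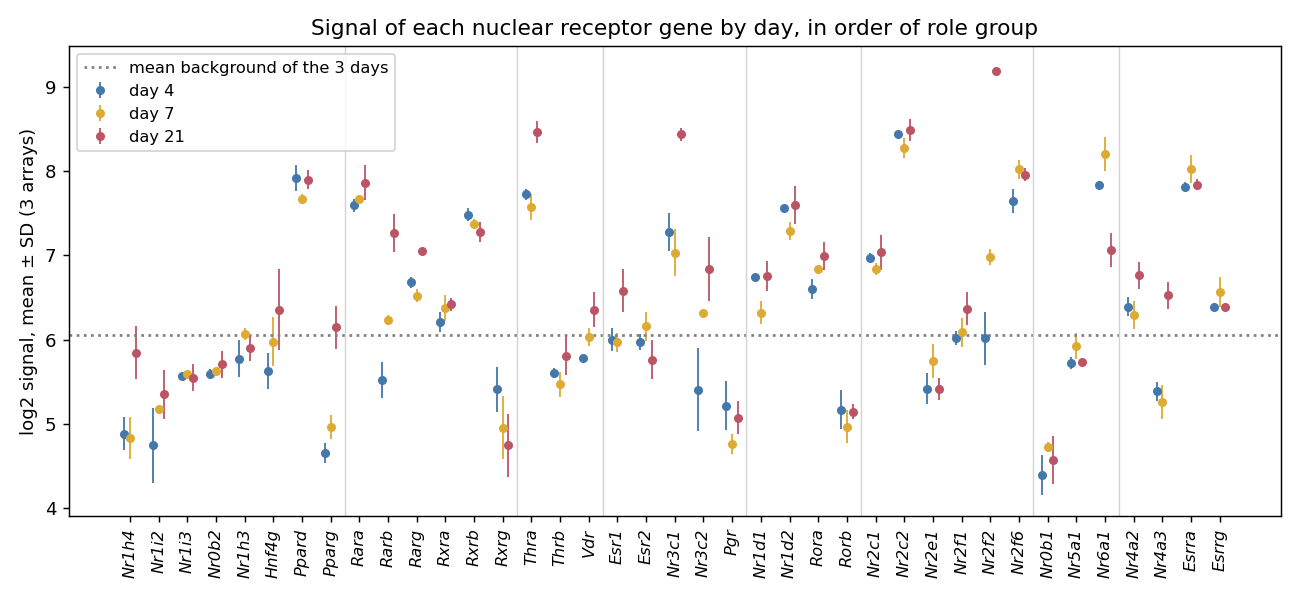
Mean log2 signal with SD over 3 arrays (y axis) of each of the 39 genes (x axis, in order of role group, groups separated by grey lines) at days 4, 7 and 21, with the mean background as a dotted line. Signals of different probe sets are not comparable with each other, only the days within a gene. Nr1i3 and Nr0b2 lie below the line on each day, and Nr2f2 moves from 6.01 to 9.20.

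Steroid receptors bind glucocorticoids, mineralocorticoids, estrogens and progesterone, and 3 of the 5 rose over the whole interval, in which 15.0% of all genes rose. Nr3c2, the mineralocorticoid receptor, had signals of 4.99, 5.95 and 5.27 at day 4, 6.31 on each array of day 7, and 6.40, 7.13 and 6.99 at day 21. The day 4 values spread by 0.49 (SD), and the early rise of at least 1.19-fold (limma adjusted p = 0.0309) was lost in 6 of 16 alternative settings. The rise from day 4 to day 21 was at least 1.72-fold (limma adjusted p = 0.00107). A second probe set of Nr3c2 alone lay at 4.20, 4.35 and 4.11 in mean signal, below background throughout, so that the 2 probe sets disagree. Nr3c1, the glucocorticoid receptor, had signals of 7.38, 7.02 and 7.43 at day 4, 6.79, 7.34 and 6.96 at day 7, and 8.35, 8.48 and 8.49 at day 21. Days 4 and 7 overlapped, and day 21 lay above both. The rise over day 7 was 2.65-fold, or 1.41 ± 0.16 (limma adjusted p = 8.51e-05).

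Esr1, estrogen receptor alpha, had signals of 6.10, 5.85 and 6.06 at day 4, 5.93, 5.88 and 6.10 at day 7, and 6.88, 6.43 and 6.43 at day 21. The means of days 4 and 7 were just below background and day 21 lay above them, by at least 1.44-fold over day 7 (limma adjusted p = 0.00862). Esr2, estrogen receptor beta, was close to background on all days (5.97, 6.16 and 5.76 in mean) and its change after day 7 did not pass (limma adjusted p = 0.0630), though it passed in 4 of the 15 alternative settings that could test it. Pgr, the progesterone receptor, lay below background with day means of 5.21, 4.76 and 5.07. Its change from day 4 to day 7 did not pass (limma adjusted p = 0.0935), though it passed in 1 of the 15 alternative settings that could test it.

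Of the 3 receptors for thyroid hormone and vitamin D, Thra and Vdr rose over the whole interval, as did 15.0% of all genes. Thra, the widely expressed alpha receptor of thyroid hormone, had signals of 7.65, 7.77 and 7.77 at day 4, 7.48, 7.75 and 7.50 at day 7, and 8.54, 8.32 and 8.54 at day 21. The day 21 arrays lay above all 6 others, 1.86-fold over day 7 (0.89 ± 0.11; limma adjusted p = 2.01e-04). The beta receptor Thrb, typical of liver, lay below background on each day, at 5.61, 5.47 and 5.81, and was not called. Vdr signals were 5.81, 5.76 and 5.79 at day 4, 5.91, 6.06 and 6.12 at day 7, and 6.22, 6.25 and 6.59 at day 21. The 3 days did not overlap, but neither step passed alone, and the whole change was at least 1.22-fold (limma adjusted p = 0.00412).

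Nr6a1, the germ cell nuclear factor GCNF, is known for repressing Pou5f1 as cells leave pluripotency, and it was the 1 member that fell after day 7. Its signals were 7.87, 7.79 and 7.86 at day 4, 8.23, 8.39 and 7.99 at day 7, and 7.28, 7.06 and 6.87 at day 21. Day 7 was highest without overlap, although the early rise of 0.36 ± 0.13 did not pass (limma adjusted p = 0.112), and day 21 was lowest. The fall after day 7 was 2.20-fold, or -1.14 ± 0.13 (limma adjusted p = 1.30e-04). The epiblast list was lowest on the same day, with 5 of 10 genes called lower and 0 higher by limma in this step (1 rise had an unadjusted p under 0.05), and its part was not tested. In this step 10.7% of all genes fell and 12.4% rose. Pou5f1 itself differed by -0.10 from day 4 to day 7 and by -0.51 from day 7 to day 21, neither called, and by -0.61 over the whole interval, which passed; it was chosen for mention after the values were known. Nr0b1 (DAX1), a receptor of naive stem cells without a DNA binding domain, and Nr5a1 (SF1), of steroid-producing cells, lay below background on all days.

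Orphan receptors of the NR4A family are immediate early genes that respond to many stimuli without a ligand. Nr4a3 signals were 5.29, 5.51 and 5.35 at day 4, 5.19, 5.10 and 5.49 at day 7, and 6.38, 6.49 and 6.70 at day 21. The rise after day 7 was at least 1.38-fold (limma adjusted p = 5.55e-05), with day 21 above all 6 earlier arrays. Nr4a2 signals were 6.36, 6.51 and 6.30, then 6.20, 6.48 and 6.20, and 6.87, 6.57 and 6.85 at day 21, and its change of 0.47 ± 0.12 after day 7 (limma adjusted p = 0.0190) was lost in 4 of 16 alternative settings. Its change over the whole interval, 0.37 ± 0.12 (limma adjusted p = 0.0454), was lost in 11 of 16. Nr4a1, the family member outside the 41, moved more, with 8.56, 8.51 and 8.67 at day 7 and 11.45, 11.48 and 11.35 at day 21, a 7.20-fold rise (limma adjusted p = 3.87e-08). All 3 NR4A genes were thus highest at day 21. The estrogen-related receptors Esrra and Esrrg, regulators of mitochondrial genes, were above background on all days and not called, with day 21 minus day 4 intervals of -0.21 to 0.26 and -0.24 to 0.23.

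The repressors Nr1d1 and Nr1d2 (REV-ERB alpha and beta) and the activators of the ROR family bind the same elements and link the circadian clock to metabolism. Nr1d1 signals were 6.73, 6.78 and 6.74 at day 4, 6.17, 6.43 and 6.36 at day 7, and 6.94, 6.72 and 6.59 at day 21. Day 7 was lowest without overlap, by -0.43 ± 0.12 below day 4 (limma adjusted p = 0.0343) and 0.43 ± 0.12 below day 21 (limma adjusted p = 0.0206). The first call was lost in 7 of 16 alternative settings and the second in 3. Nr1d2 had the same order of day means, 7.56, 7.29 and 7.60, without a call, apart from the later step in 1 of 16 alternative settings. Rora signals were 6.69, 6.65 and 6.46 at day 4, 6.83, 6.85 and 6.83 at day 7, and 6.83, 7.17 and 6.97 at day 21, a change of 0.39 ± 0.11 in all (limma adjusted p = 0.0213) that was lost in 3 of 16 alternative settings. Rorb lay below background on all days.

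**Figure D4:**
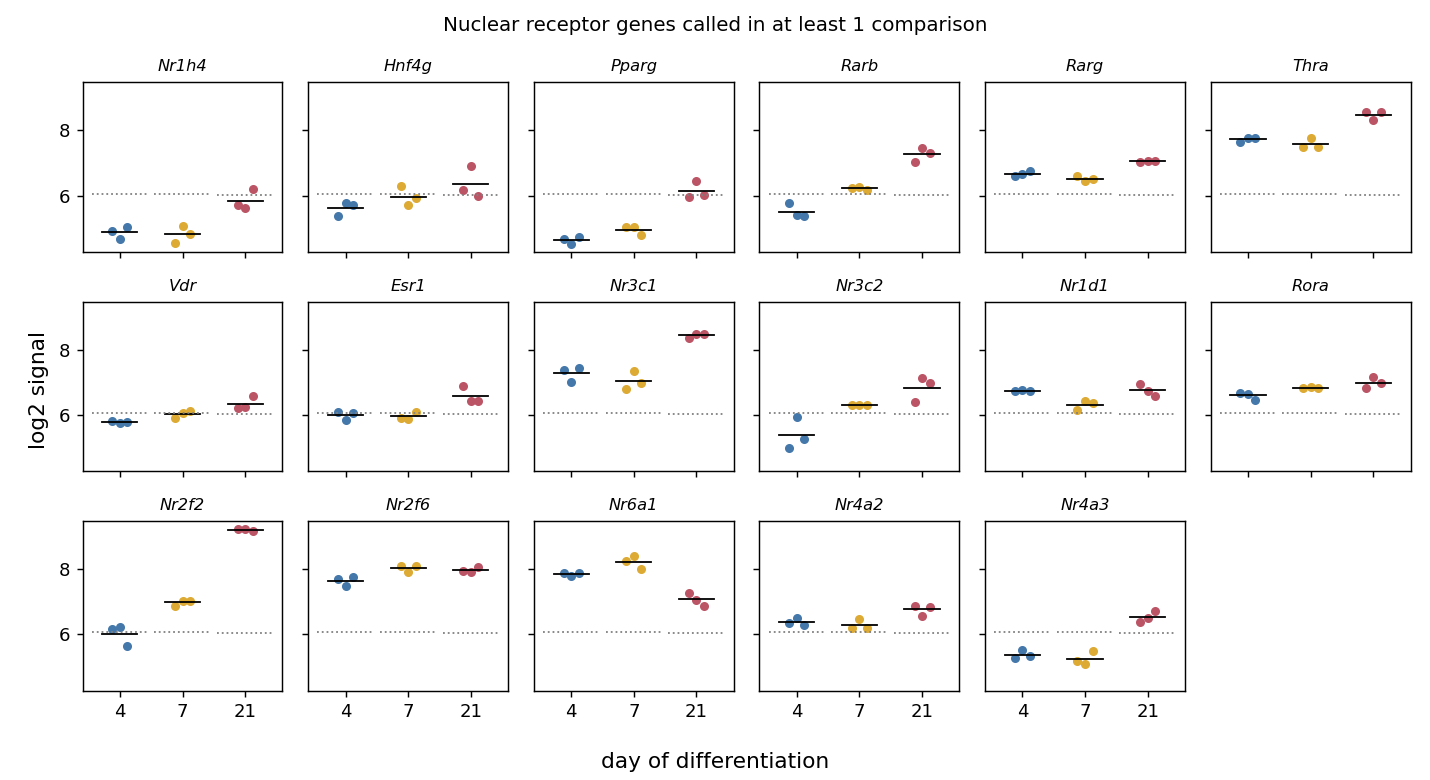
Log2 signal (y axis) on each array by day (x axis) for the 17 genes called in at least 1 comparison. Points are single arrays, black bars the mean of 3 arrays and dotted lines the background of the day. For Nr2f2, Nr3c1, Thra and Nr4a3 the 3 arrays of day 21 lie above all 6 earlier arrays, and for Nr6a1 below them.

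Partners and targets of these receptors were read from 9 lists of genes. Nuclear receptors outside the 41 had 6 measured genes, of which 2 rose and 1 fell after day 7. In that step 12.4% of all genes rose and 10.7% fell. Hnf4a, the orphan receptor of liver and visceral endoderm, rose by 2.66 ± 0.18 by day 7 and then fell by 1.03 on the log2 scale by day 21 (limma adjusted p = 0.00178). Nr5a2, of liver and pancreas, rose by 0.94 ± 0.16 after day 7, while Esrrb, Ppara and Nr1h5 were below background on every day.

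Of 20 measured coactivators and corepressors, 2 rose and 0 fell by day 7 by limma (5 falls had an unadjusted p under 0.05), 4 rose and 2 fell from day 7 to day 21, and 5 rose and 3 fell over the whole interval. As shares these were 10% and 0%, 20% and 10%, and 25% and 15%. Of all genes 6.98% rose and 6.47% fell by day 7, 12.4% and 10.7% after it, and 15.0% and 14.1% in all. The median change over the whole interval was -0.09, against -0.03 for all genes. Ppargc1a, the coactivator PGC-1 alpha of PPAR and estrogen-related receptors, had signals of 4.46, 4.77 and 4.99 at day 7 and 8.32, 8.12 and 7.78 at day 21. The day 21 arrays lay above all others, at least 4.05-fold over day 7, when the gene was below background (limma adjusted p = 1.71e-06). Lcor, a ligand-dependent corepressor, rose by 1.34 ± 0.14 and Ncoa1, the coactivator SRC-1, by 1.31 ± 0.14 from day 4 to day 21.

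Genes of retinoic acid response and handling moved both ways. Of 20 measured, 3 rose and 4 fell by day 7 (15% and 20%, against 6.98% and 6.47% of all genes). From day 7 to day 21, 8 rose and 3 fell (40% and 15%, against 12.4% and 10.7%), with a median change of 0.01. Over the whole interval 6 rose and 3 fell (30% and 15%, against 15.0% and 14.1%). Tgm2, a transglutaminase induced by retinoic acid, rose by 3.40 ± 0.11 after day 7, and Dhrs3, a retinaldehyde reductase, at least 6.49-fold. Cyp26a1 fell, as given with its element.

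Most target genes of PPAR receptors rose after day 7. Of 16 measured, 10 rose and 0 fell by limma (0 falls had an unadjusted p under 0.05), with a median change of 0.56 against -0.03 for all genes. The share called higher was 62.5% against 12.4% of all genes, while 10.7% of all genes fell. In the step before, 2 rose and 2 fell (12.5% each, against 6.98% and 6.47% of all genes). Cpt1a, which admits fatty acids to mitochondria, had signals of 5.99, 5.93 and 6.37 at day 7 and 10.57, 10.65 and 10.16 at day 21, a change of 4.36 ± 0.18 (limma adjusted p = 7.41e-08). Fabp1, the liver fatty acid carrier, rose at least 5.32-fold. Fabp4, its fat cell and endothelial relative, had 8.35, 7.36 and 6.53 on the day 21 arrays and rose at least 2.56-fold. This is the same order as the stromal list on these arrays (9.26, 8.79 and 8.51). The order is not particular to Fabp4: Abca1, Ppargc1a, Npas2 and Esr1 had it too, while Cpt1a and Fabp1 did not. The part of stroma in these rises was not tested.

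Targets of the bile acid, oxysterol and xenobiotic receptors moved both ways, as all genes did. Of 23 measured, 4 rose and 3 fell after day 7 (17.4% and 13%, against 12.4% and 10.7% of all genes). Over the whole interval 6 rose and 3 fell (26.1% and 13%, against 15.0% and 14.1%), with a median of 0.19. Abca1, a cholesterol exporter induced by LXR, rose by 2.25 ± 0.29 after day 7, and Scd1, a fatty acid desaturase, fell by 3.09 on the log2 scale. Cyp3a13, a cytochrome P450, rose in both steps, at least 2.71-fold in all.

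Among 17 glucocorticoid and mineralocorticoid target and handling genes, 6 rose and 3 fell after day 7. These are 35.3% and 17.6%, against 12.4% and 10.7% of all genes. Over the whole interval 8 rose and 3 fell (47.1% and 17.6%, against 15.0% and 14.1%), with a median of 0.28. Errfi1 and Dusp1, feedback inhibitors of growth factor signalling, rose by 2.30 ± 0.12 and 1.96 ± 0.14 after day 7. Zbtb16, a zinc finger factor, rose by 2.31 ± 0.14 by day 7 and fell by 1.20 on the log2 scale after it. Fkbp5, a standard glucocorticoid response gene, was called lower at day 21 than at day 7 (-0.35). In the same step Sgk1 of this list was also called lower (-1.24). Mt1, Mt2 and Ddit4 were called higher in it, by 1.02, 1.04 and 0.46 on the log2 scale. Hsd11b1 was called higher too but lay below background on every day. Fkbp5, Sgk1, Mt1, Mt2, Ddit4 and Hsd11b1 were chosen for mention after their values were seen.

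In the list of 14 thyroid hormone and vitamin D genes, 1 rose and 2 fell after day 7, and the median was -0.10. These are 7.14% and 14.3%, against 12.4% and 10.7% of all genes. S100g, a vitamin D dependent calcium binding protein, rose in both steps, at least 2.06-fold and then by 2.05 ± 0.27 on the log2 scale. Ttr, which carries thyroxine and is a marker of visceral endoderm, rose at least 16.7-fold and then fell by 0.82 on the log2 scale. Cyp2r1, a vitamin D hydroxylase, was called lower over the whole interval (limma adjusted p = 0.0468) but lay below background on every day.

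Of 11 genes of estrogen and progesterone response, 6 rose and 1 fell from day 4 to day 21. These are 54.5% and 9.09%, against 15.0% and 14.1% of all genes. Hsd17b2, which inactivates estradiol, rose at least 11.9-fold after day 7. Greb1, a standard estrogen response gene, fell in both steps, by -2.04 ± 0.13 in all. Ccnd1, cyclin D1, fell by 1.73 on the log2 scale and then rose by 1.58 ± 0.11.

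Of 14 core clock genes, 0 rose by day 7 by limma (2 rises had an unadjusted p under 0.05) and 1 fell. In this step 6.98% of all genes rose and 6.47% fell. After day 7, 5 rose (35.7%, against 12.4% of all genes), with a median of 0.23. Bhlhe40, a clock repressor, had signals of 8.11, 7.50 and 7.66 at day 4, 6.37, 6.25 and 6.88 at day 7, and 8.71, 8.88 and 8.81 at day 21, lowest at day 7, as Nr1d1 was. Npas2, a partner of the clock activator, rose by 1.45 ± 0.23 and Cry2 by 0.81 ± 0.15 after day 7.

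**Figure D5:**
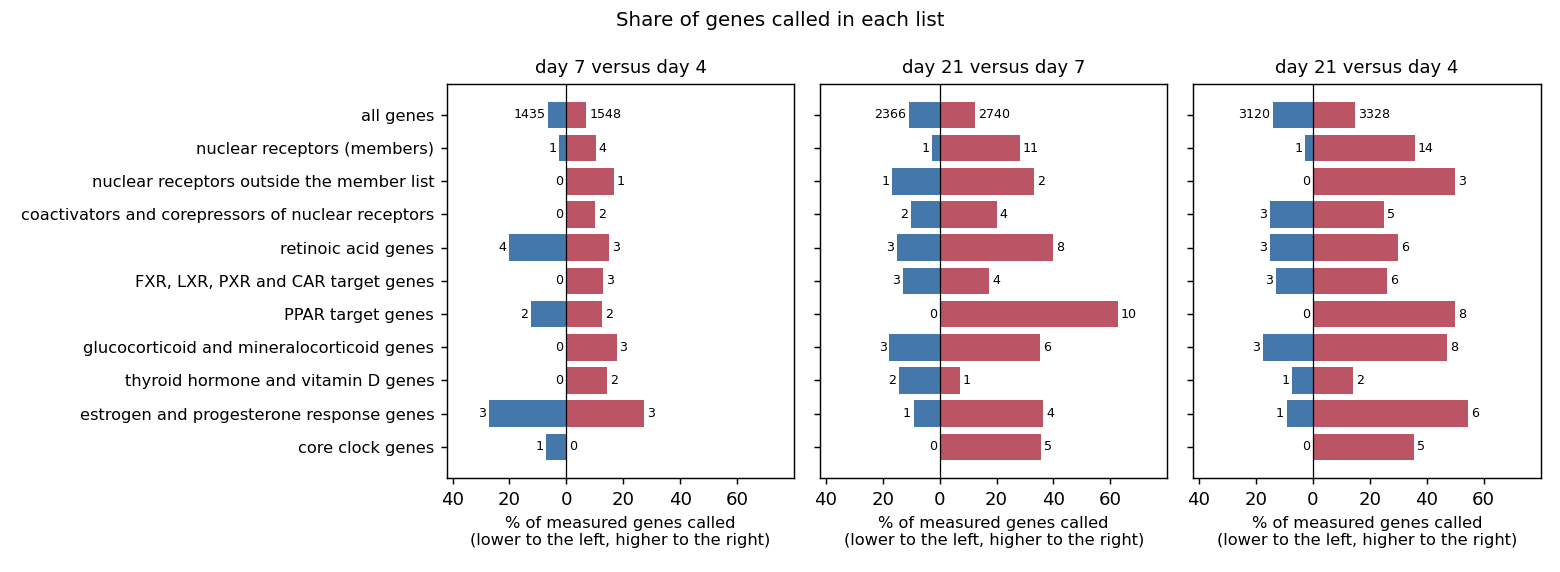
Percentage of measured genes called lower (left, blue) and higher (right, red) in each list of receptors, partners and targets, with the number of genes beside each bar, in the 3 comparisons (panels). All genes and the 39 members are shown at the top for reference. After day 7 the PPAR target list has 10 genes called higher and 0 lower.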

How the data were processed

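RNA was biotin-labelled with a kit made for picogram inputs, per the labels' protocols. The authors deposited log2 values for each probe set. The submitters' processing notes name RMA and Affymetrix Expression Console, without versions. RMA brings arrays to a common distribution, so a change common to most transcripts is largely lost. Values ran from 1.62 to 13.98, no arrays were identical, and arrays of a day correlated at 0.984 to 0.991 across genes. Precision is set by the number of arrays, since no read depth applies.

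Of 34365 probe sets, 23521 had 1 symbol, 1814 several and 9030 none here. The brightest 1-symbol probe set per gene was kept (22180 genes, 1082 with several). By Entrez number 21994 matched RefSeq (GRCm38.p6), with 0 symbols changed. With limma 3.58.1 (R 4.3.3; lmFit and eBayes), 1 model with a term for each day took in the 9 arrays, with two-sided tests, adjusted p under 0.05 and no minimum fold; it was first tested on simulated data. A change of a called gene whose dimmer mean lay below background is printed as a lower bound: the bright mean minus the mean, per array, of the higher of background and own signal. Upstream windows are RefSeq's, GRCm38.p6. Alternatives changed the scaling, probe set rule, filter, variance model and arrays used.

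The members and the gene lists were chosen with earlier results of these data known. All members are accounted for, and of each pathway list up to 3 called genes with the largest change are named.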

Additional observations from a re-analysis of the deposited data

How the results depend on the processing

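Each comparison was recomputed under 16 alternatives: the replicate number as a block, 2 other scalings, the mean of a gene's probe sets, a filter on dim genes, another variance model, only the 2 days compared, and each of the 9 arrays left out. Of 32 called changes of members, 24 kept direction and call under every alternative that could test them, 8 lost the call under at least 1, and 0 reversed. Of the called members the filter removed Pparg, Nr4a3, Nr1h4 and Hnf4g, so it could not test them. The 8 were those of Nr2f6, Nr3c2 and Nr1d1 from day 4 to day 7, Nr1d1 and Nr4a2 from day 7 to day 21, and Hnf4g, Nr4a2 and Rora from day 4 to day 21. The causes were not tested.

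Members called higher numbered 4, 11 and 14 in the 3 comparisons (day 7 against 4, 21 against 7, 21 against 4), and with 1 array left out 2 to 4, 9 to 12 and 11 to 14. The count of 2 came without replicate 1 or 3 of day 4 and without replicate 1 or 3 of day 7, when Nr2f6 and Nr3c2 lost their calls (without day 7 replicate 2, Nr3c2 alone). The 1 member called lower became 0 to 1, 1 to 2 and 1 to 2. It became 0 in the first comparison, when Nr1d1 lost its call, without any 1 array of day 4, without replicate 1 or 3 of day 7, or without day 21 replicate 2. From day 7 to day 21 the lower count was 2 with arrays centred on their median and 2 with quantile normalization, and also without day 7 replicate 2 or day 21 replicate 3, each time by adding Esr2. From day 4 to day 21 it was 2 with each of these scalings, 2 with trend and robust variance and 2 with the replicate block, and also without day 4 replicate 3, day 7 replicate 1 or day 21 replicate 2, each time by adding Rxrg.

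With the replicate block the members called were 5, 12 and 16 against 5, 12 and 15, and all genes called were 2895, 5041 and 6413 against 2983, 5106 and 6448. The members were not all the same. For day 7 against day 4 the block lost Nr1d1 and gained Pgr. For day 21 against day 4 it lost Hnf4g and Nr4a2 and gained Nr1i2, Nr2f6 and Rxrg. The arrays share only a number: deviations of same-numbered arrays correlated at -0.0541 to 0.263 (2 of 9 pairs over 0.1), and 6 of 18 best matches between days joined the same number. Dim receptors are limited by the background, below which changes have no interpretable size.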

Other observations

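Probe sets that carry a member's symbol together with another gene were left out of the comparisons. The 1 shared by Ppard and 1810013A23Rik had mean signals of 6.38, 6.21 and 6.15 at days 4, 7 and 21, and the 1 shared by Nr3c2 and Gm10649 lay at 5.42, 5.37 and 5.29, below background.

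Of the 22 members never called, 10 lay below background on all days, 9 above it on all days and 3 on some days. The 9 were Ppard, Rara, Rxra, Rxrb, Nr1d2, Nr2c1, Nr2c2, Esrra and Esrrg. The 8 called members above background on all days were Rarg, Thra, Nr3c1, Nr1d1, Rora, Nr2f6, Nr6a1 and Nr4a2.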
